A study of Homo sapiens
Mus musculus with 2 samples.

Results

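The proteasome genes of the mouse colonic epithelium are described here across its cell types. They were taken as every gene row, listed in the count tables of both libraries, whose symbol starts with Psma to Psmg followed by a digit, and 50 of the 25504 genes matched. The data come from untreated colonic epithelial cells of 1 wild-type (WT) C57Bl6 mouse whose age and sex the sources used here do not give. Human K562 leukaemia cells were spiked in and were not analysed here. The cells were prepared as 2 inDrop libraries, each of different cells of that mouse, sequenced together. Every p-value below therefore measures only spread within 1 animal, which may be technical. The mean difference of each gene between the libraries was fitted and removed, except where the library is said not to be a block. What remains is how the class differences vary between the 2 libraries. The epithelium was released with EDTA and enzymes and enriched for viable cells, and the epithelial identity was read from marker genes, as given below.

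The proteasome degrades proteins that carry a ubiquitin tag. Its barrel-shaped core is built from alpha subunits (Psma genes) on the outside and beta subunits (Psmb genes) on the inside, some of which carry the catalytic sites, and a regulatory cap of ATPases (Psmc genes) and non-ATPase subunits (Psmd genes) recognises, unfolds and feeds in the substrates. Interferon signalling induces alternative catalytic subunits: Psmb8, Psmb9 and Psmb10 take the places of Psmb5, Psmb6 and Psmb7 in newly made cores, which are then called immunoproteasomes, and Psme1 and Psme2 form a further activator ring. These forms are known for producing peptides that are presented on MHC class I molecules, which epithelial cells of the gut also display.

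Replicate 1 held 1738 barcodes with 8602490 UMIs (unique molecular identifiers, which mark single captured molecules) and replicate 2 held 664 with 3951918. After 87 and 33 suspected doublets were left out, clusters were named from marker genes, and 5 epithelial classes could be compared: colonocyte-like (561 and 183 cells in replicates 1 and 2), goblet-like (293 and 76), deep crypt secretory-like (284 and 85), stem/cycling-like (189 and 57) and cycling-like cells (55 and 20). The stem/cycling-like class expressed stem and cycling markers together. Deep crypt secretory markers were also high in the cycling-like class. They stood 2.59 above the mean of the 13 clusters (log2), against 3.25 in the deep crypt secretory-like class. Clusters that stayed unnamed held 205 and 199 cells, 12.4% and 31.5% of those kept, and entered none of the comparisons. No barcode column had the same counts in both libraries. The UMIs of each class were summed per library, giving 10 sums of 161358 to 2828974 UMIs, and each class was compared with the mean of the other 4 by edgeR's quasi-likelihood test with Benjamini-Hochberg adjustment over all 8088 genes tested; a gene is called at an adjusted p under 0.05. Genes used to cluster the cells were kept out of these tests, and no member was used for clustering, but readout and clustering genes come from the same cells, so the classes and the tests are not fully independent. Levels of single genes are given as scaled CPM, the UMIs of the gene in 1e6 UMIs after scaling with edgeR's TMM factors, in replicate 1 and then replicate 2. These factors matter here: with library totals alone, the median of all genes moved from 0.08 to -0.27 in colonocyte-like cells, from 0.08 to -0.26 in goblet-like cells, from 0.03 to 0.28 in stem/cycling-like cells, from -0.11 to 0.21 in cycling-like cells and from 0.09 to 0.21 in deep crypt secretory-like cells (log2). Shares of one gene among others, given first below, do not depend on this choice.

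The 50 members together took 0.498% of the UMIs of replicate 1 and 0.459% of those of replicate 2, with a median of 20 member UMIs per barcode in each. By role they comprised 7 alpha and 7 constitutive beta subunits of the core, 3 inducible beta subunits, the 2 activator subunits Psme1 and Psme2, 6 ATPases and 11 non-ATPases of the cap, 7 assembly chaperones, 3 other regulators and 4 genes set apart. All of these except 3 of the genes set apart reached 20 UMIs over the class sums and were tested, which makes 47. Psma8, a testis form of an alpha subunit, had 5 and 0 UMIs, and Psme2b, a near-identical copy of Psme2, had 1 and 1. Psmc3ip, which carries a similar symbol but encodes a recombination factor and no proteasome subunit, had 10 and 10. The fourth gene set apart, Psmb11, encodes a catalytic subunit known from the thymic cortex; it had 26 and 19 UMIs spread over the library and was called in no class.

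Colonocyte-like cells had the largest share of inducible catalytic subunits. This share is the UMIs of Psmb8, Psmb9 and Psmb10 over those of these 3 genes and their counterparts Psmb5, Psmb6 and Psmb7, and no test was made of it; intervals are 95% exact Clopper-Pearson intervals, which cover counting error only. In colonocyte-like cells it was 75.9% (74.4% to 77.4%) in replicate 1, from 2491 of 3281 UMIs, and 77.6% (75.3% to 79.8%) in replicate 2, from 1063 of 1369. Goblet-like cells followed with 70.8% (68.4% to 73.1%) and 69.0% (64.9% to 72.9%), and stem/cycling-like cells with 66.0% (63.6% to 68.3%) and 66.1% (62.2% to 69.8%). It was 61.0% (58.6% to 63.4%) and 59.6% (55.6% to 63.6%) in the deep crypt secretory-like class. In cycling-like cells, from 254 of 439 and 119 of 193 UMIs, the share was 57.9% (53.1% to 62.5%) and 61.7% (54.4% to 68.5%). The colonocyte-like interval lay above those of the other 4 classes in each library. Goblet-like and stem/cycling-like cells were apart in replicate 1, while their intervals overlapped in replicate 2, and those of deep crypt secretory-like and cycling-like cells overlapped in both.

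**Figure D1:**
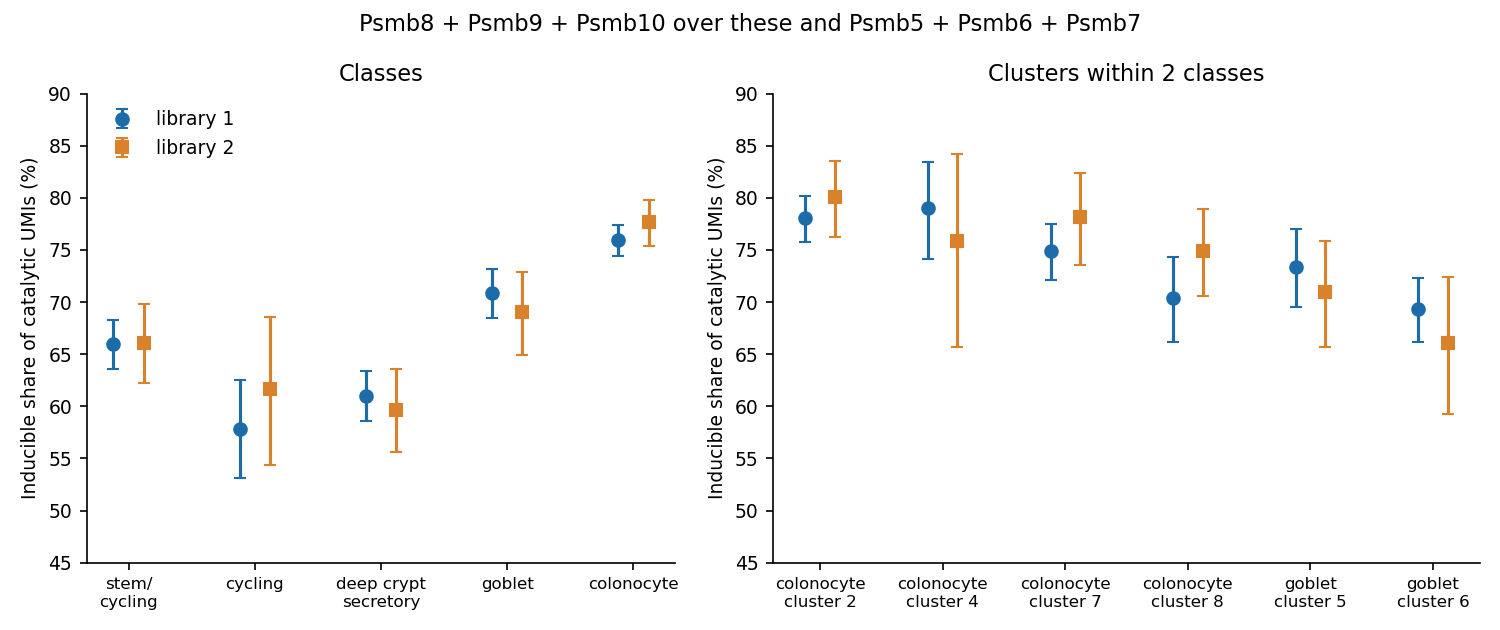
Share of the 3 inducible catalytic subunits among the 6 catalytic beta subunits, in percent of UMIs (y axis, starting at 45%), by class on the left and by cluster within the colonocyte-like and goblet-like classes on the right; circles are replicate 1, squares replicate 2, and bars 95% exact binomial intervals. Colonocyte-like cells stand at 75.9% and 77.6%, above the other 4 classes in both libraries.

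Each of the 3 pairs showed the same difference between colonocyte-like and deep crypt secretory-like cells. Psmb8, whose product takes over the chymotrypsin-like site of Psmb5, made up 74.1% (71.7% to 76.4%) and 75.8% (72.0% to 79.3%) of the UMIs of that pair in colonocyte-like cells and 57.6% (53.8% to 61.3%) and 55.7% (48.8% to 62.3%) in deep crypt secretory-like cells. For Psmb9 with Psmb6, the latter encoding the caspase-like subunit, the shares were 63.4% (59.7% to 66.9%) and 69.6% (64.0% to 74.7%) against 49.4% (44.5% to 54.3%) and 48.6% (40.9% to 56.3%). For Psmb10 with Psmb7, the trypsin-like site, they were 85.3% (83.2% to 87.3%) and 84.3% (80.9% to 87.3%) against 75.1% (71.1% to 78.8%) and 73.1% (66.5% to 79.0%). In goblet-like cells the Psmb10 share, 86.2% and 78.4%, was near that of colonocyte-like cells in replicate 1 and lower in replicate 2, whereas the Psmb9 share, 52.9% and 55.6%, was below it in both libraries. The counts come from the 3′ ends of transcripts and are compared only between classes, not as the amounts of the proteins in a pair.

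The share varied among the 4 colonocyte-like clusters, mostly within overlapping intervals. The cluster led by Fabp6, Clca4b, Saa1 and Ubd had shares of 78.0% (75.8% to 80.2%) and 80.1% (76.3% to 83.5%), and the cluster led by Aqp8 and Cyp2c55 had 74.9% (72.1% to 77.5%) and 78.2% (73.5% to 82.4%). The cluster led by Gsdmc4 and Reg3b had the lowest share of the 4 in each library, 70.4% (66.2% to 74.3%) and 74.9% (70.6% to 78.9%). Its summed immunoproteasome level, given further below, was nevertheless the highest of the 4 in each library. In replicate 1 the interval of that level overlapped those of the cluster led by Fabp6 and of the shallow cluster. A shallow cluster of 167 and 41 cells had 79.0% (74.1% to 83.4%) and 75.8% (65.7% to 84.2%). The 2 goblet-like clusters stood at 73.4% (69.5% to 77.0%) and 71.0% (65.7% to 75.9%) and at 69.3% (66.2% to 72.3%) and 66.0% (59.2% to 72.4%). The range of the colonocyte-like clusters in replicate 1 thus reached down to that of goblet-like cells, and no test was made between clusters.

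All 5 immunoproteasome members were called higher in colonocyte-like cells than in the mean of the other classes, where 21.6% of all genes tested were called higher. Psmb10 stood at 479 and 387 in colonocyte-like cells, 372 and 263 in goblet-like cells, 265 and 231 in stem/cycling-like cells, 251 and 234 in deep crypt secretory-like cells and 212 and 210.0 in cycling-like cells (scaled CPM, as in the following). Colonocyte-like cells were the highest class in each library, and the log2 difference was 0.78 ± 0.12 (SE; n = 2 libraries here and below; edgeR adjusted p = 3.5e-10). Psmb8 stood at 476 and 373 in colonocyte-like cells, 328 and 265 in goblet-like cells, 407 and 349 in stem/cycling-like cells, 256 and 189 in deep crypt secretory-like cells and 312 and 225 in cycling-like cells. It was again highest in colonocyte-like cells in each library, by a log2 difference of 0.57 ± 0.11 (edgeR adjusted p = 6.3e-06), with stem/cycling-like cells next. Psmb9 stood at 209 and 185 in colonocyte-like cells, 150.3 and 143 in goblet-like cells, 172 and 155 in stem/cycling-like cells, 134 and 129 in deep crypt secretory-like cells and 177 and 160.0 in cycling-like cells, with a difference of 0.38 ± 0.13 in colonocyte-like cells (edgeR adjusted p = 0.013).

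The activator subunits moved in the same direction. Psme1 stood at 256 and 223 in colonocyte-like cells, 187 and 161 in goblet-like cells, 229 and 189 in stem/cycling-like cells, 170.5 and 143 in deep crypt secretory-like cells and 166 and 150.0 in cycling-like cells, and its log2 difference in colonocyte-like cells was 0.47 ± 0.13 (edgeR adjusted p = 0.0011). Its partner Psme2 was counted far less, with 29 and 22 UMIs in colonocyte-like cells and 1 and 0 in cycling-like cells, and its level was 13.6 and 19.6 in colonocyte-like cells, 5.72 and 10.9 in goblet-like cells, 7.93 and 12.3 in stem/cycling-like cells, 6.46 and 10.8 in deep crypt secretory-like cells and 2.76 and 0 in cycling-like cells. Its difference of 1.45 ± 0.41 (edgeR adjusted p = 0.0019) rests on these few UMIs and on a class with 0 in replicate 2, and reads that match both Psme2 and its copy Psme2b may have been lost or split in the authors' counting. With library totals alone the 5 differences kept their direction and became 0.44 for Psmb10, 0.22 for Psmb8, 0.03 for Psmb9, 0.11 for Psme1 and 1.11 for Psme2, and only Psmb10 and Psme2 remained called, where 14.8% of all genes were called higher. DESeq2's test called all 5, and 2 of the 5, again Psmb10 and Psme2, remained without the library as a block.

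**Figure D2:**
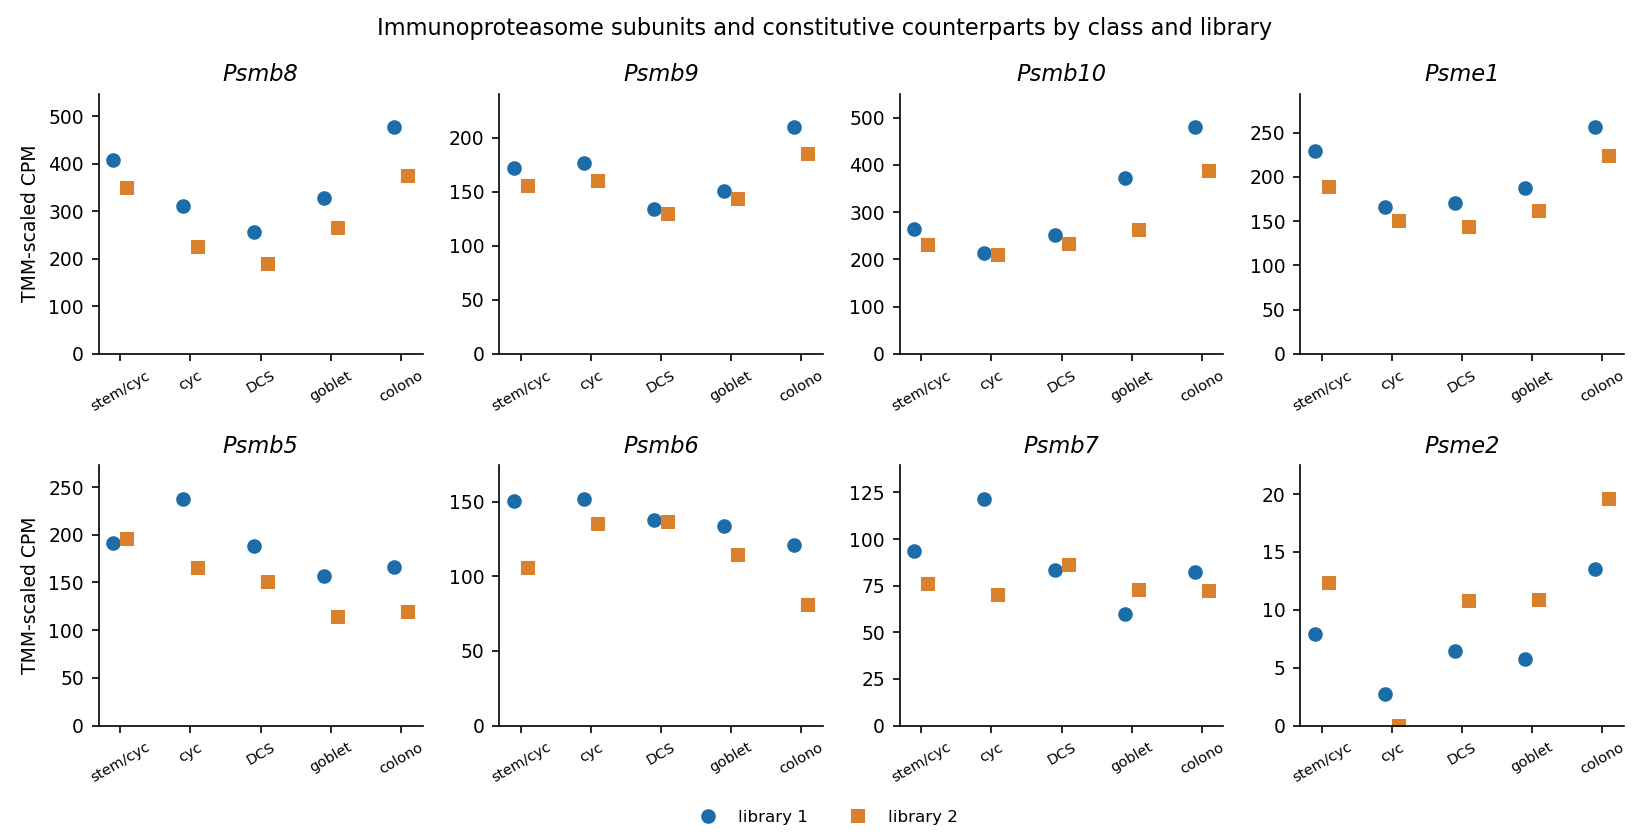
Level of 8 subunits in TMM-scaled CPM (y axes, from 0) in 5 classes (x axes; stem/cyc, stem/cycling-like; cyc, cycling-like; DCS, deep crypt secretory-like; colono, colonocyte-like); circles are replicate 1 and squares replicate 2. Psmb8, Psmb9, Psmb10, Psme1 and Psme2 are highest in colonocyte-like cells in both libraries on this scale, while Psmb5, Psmb6 and Psmb7 are not; with library totals only, 2 of the 47 members are highest there in both.

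The counterparts Psmb5, Psmb6 and Psmb7 were not highest in colonocyte-like cells. Psmb5 stood at 166 and 119 in colonocyte-like cells, 157 and 114 in goblet-like cells, 191 and 196 in stem/cycling-like cells, 189 and 151 in deep crypt secretory-like cells and 237 and 165 in cycling-like cells, and its difference in colonocyte-like cells was -0.28 ± 0.14 (edgeR adjusted p = 0.098), which was not called. Psmb6 stood at 121 and 80.9 in colonocyte-like cells, 134 and 114 in goblet-like cells, 151 and 106 in stem/cycling-like cells, 138 and 137 in deep crypt secretory-like cells and 152 and 135 in cycling-like cells and was called lower in colonocyte-like cells, at -0.38 ± 0.15 (edgeR adjusted p = 0.031). Psmb7 stood at 82.3 and 72.0 in colonocyte-like cells, 59.6 and 72.5 in goblet-like cells, 93.6 and 75.8 in stem/cycling-like cells, 83.3 and 86.1 in deep crypt secretory-like cells and 121 and 70.0 in cycling-like cells and differed by -0.09 ± 0.17 (edgeR adjusted p = 0.72). With library totals alone, all 3 were called lower in colonocyte-like cells, where 28.8% of all genes were. DESeq2's test did not call Psmb6, and its difference was -0.58 in replicate 2 alone and -0.24 in replicate 1 alone.

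Compared class by class, 4 of the 8 subunits (these 5 and 3) were called higher in colonocyte-like than in deep crypt secretory-like cells and none lower by edgeR, against 36.0% of all genes called in either direction. At an unadjusted p under 0.05, 5 were higher and 1 lower. Psmb8 differed by 0.93 ± 0.15 (edgeR adjusted p = 2.1e-08), Psmb10 by 0.84 ± 0.15 (edgeR adjusted p = 4.1e-07), Psme1 by 0.61 ± 0.16 and Psmb9 by 0.59 ± 0.17. With totals alone Psmb8 (0.55) and Psmb10 (0.47) remained called, while Psmb9 (0.21, edgeR adjusted p = 0.29) and Psme1 (0.23, edgeR adjusted p = 0.22) did not. Against goblet-like cells Psmb8, Psmb10 and Psme1 were called higher, by 0.52 ± 0.15, 0.44 ± 0.15 and 0.46 ± 0.17, against 23.8% of all genes. The TMM factors of these 2 classes were close, so totals alone gave nearly the same differences. Against stem/cycling-like cells Psmb10 alone of the 5 was called, by 0.81 ± 0.15 (edgeR adjusted p = 2.0e-06), and Psmb5 was called lower, at -0.42 ± 0.17, where 34.7% of all genes were called. With totals alone Psmb10 was still called there, at 0.32, and Psmb8, at 0.17 and not called with TMM factors, was called lower, at -0.31 (edgeR adjusted p = 0.0497). Against cycling-like cells Psmb8 (0.65 ± 0.18), Psmb10 (1.05 ± 0.18), Psme1 (0.61 ± 0.20) and Psme2 (3.05 ± 1.03, from the few UMIs given above) were called higher and Psmb5 lower (-0.51 ± 0.20), where 28.4% of all genes were called. With totals alone Psmb10 (0.52) and Psmb5 remained called there, while Psmb8 (0.11, edgeR adjusted p = 0.65), Psme1 (0.07, edgeR adjusted p = 0.83) and Psme2 (2.54, edgeR adjusted p = 0.064) did not. Between deep crypt secretory-like and goblet-like cells none of the 8 was called by edgeR, where 13.6% of all genes were; at an unadjusted p under 0.05 there were 2, Psmb8 (-0.41 ± 0.16) and Psmb10 (-0.40 ± 0.16), both lower in deep crypt secretory-like cells.

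Outside the immunoproteasome, colonocyte-like cells had 2 of 42 members called higher and 9 lower, against 21.6% and 18.0% of all genes. The lower calls were thus near the share of all genes, and the higher calls were below it. Of the 14 constitutive core subunits 1 was called higher and 4 lower, with a median log2 difference of -0.28 against 0.08 over all genes. The alpha subunit Psma1 was at 327 and 236 in colonocyte-like cells and at 189 and 171 in deep crypt secretory-like cells and was called higher by 0.45 ± 0.12. Psma3 was at 258 and 205 against 473 and 298 in stem/cycling-like cells and was called lower, at -0.53 ± 0.13 (edgeR adjusted p = 0.0012 and 1.7e-04). These 2 alpha subunits thus differed in direction. With totals alone Psma1 was at 0.09 and not called. It was not called either when all other genes were used for clustering, where a cluster led by Gsdmc4 stayed unnamed. The beta subunits Psmb1 (-0.34 ± 0.12), Psmb2 (-0.42 ± 0.17) and Psmb6 were called lower, and DESeq2's test called none of these 3. With library totals alone 12 of the 14 core subunits were called lower by edgeR, against 28.8% of all genes, whose median moved to -0.27 as well. Psma3 was at -0.35 in replicate 2 alone.

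The cap was called less often than all genes in colonocyte-like cells. Of its 17 subunits 5.88% were called higher and 11.8% lower, against 21.6% and 18.0% of all genes. None of the 6 ATPases was called by edgeR, nor at an unadjusted p under 0.05 (0 of 6) or by DESeq2, and their median difference was -0.17. Of the 11 non-ATPases, Psmd7 and Psmd14 were called lower, at -0.55 ± 0.18 and -0.45 ± 0.17 (edgeR adjusted p = 0.0076 and 0.026). DESeq2's test called neither, and Psmd7 was at -0.36 in replicate 2 alone. Psmd14 encodes the enzyme that removes the ubiquitin chain from a substrate at the cap, and Psmd7 its partner subunit. The lid subunit gene Psmd8 was called higher by 0.32 ± 0.13, which turned to -0.03 with totals alone, and under that scaling 11 of the 17 cap subunits were called lower, again against 28.8% of all genes.

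**Figure D3:**
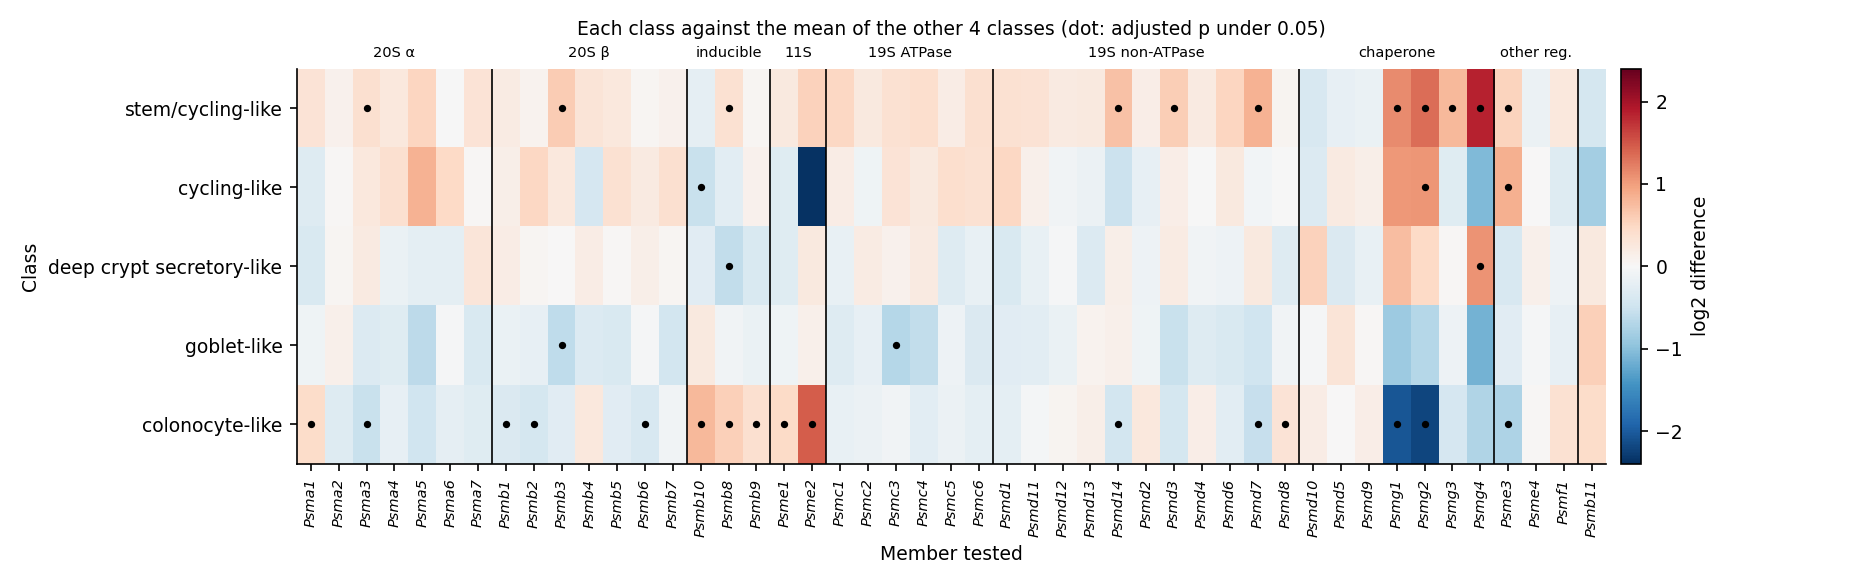
Log2 difference of each of the 47 tested members (columns, grouped by role; the last column is Psmb11) in each class (rows) from the mean of the other 4 classes; red is higher, blue lower, and a dot marks an adjusted p under 0.05 in edgeR's test. The 5 immunoproteasome members carry dots in the colonocyte-like row, and Psmg1 to Psmg4 carry dots in the stem/cycling-like row.

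Stem/cycling-like cells had 11 members called higher and none lower, against 10.4% of all genes called higher and 9.67% lower by edgeR; at an unadjusted p under 0.05 there were 19 higher and 0 lower, and DESeq2's test called 4 higher, Psmd7, Psmd14, Psmg2 and Psmg4, and 0 lower. Without the doublet filter or at a Leiden resolution of 0.5 no stem/cycling-like class formed, and the cycling-like class then had 22 and 19 members called higher. Calls over all genes rose there as well, to 1267 of 7831 and 1173 of 8123 higher, from 522 of 8088 in the main setting. The assembly chaperones of the alpha ring formed the largest part. Psmg4 stood at 23.8 and 33.5 in stem/cycling-like cells, 14.9 and 23.1 in deep crypt secretory-like cells, 2.76 and 10 in cycling-like cells, 6.08 and 7.11 in colonocyte-like cells and 5.72 and 3.63 in goblet-like cells, and its log2 difference was 1.85 ± 0.36 (edgeR adjusted p = 7.7e-06). The Psmg4 levels rest on few UMIs, 30 and 19 in stem/cycling-like, 1 and 2 in cycling-like and 7 and 2 in goblet-like cells. Psmg2 stood at 64.3 and 38.8 in stem/cycling-like cells, 63.5 and 20 in cycling-like cells, 32.3 and 35.3 in deep crypt secretory-like cells, 20.4 and 12.7 in goblet-like cells and 8.88 and 5.33 in colonocyte-like cells and was higher by 1.34 ± 0.25 (edgeR adjusted p = 2.3e-06). Both genes were highest in stem/cycling-like cells in each library, and the cycling-like value of Psmg2 differed more than 3-fold between the libraries, from 23 and 4 UMIs.

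Psmg1, whose product pairs with that of Psmg2, stood at 23 and 15.9 in stem/cycling-like cells, 22.1 and 15 in cycling-like cells, 18.7 and 12.3 in deep crypt secretory-like cells, 7.35 and 5.44 in goblet-like cells and 3.27 and 3.56 in colonocyte-like cells, a difference of 1.13 ± 0.36. Psmg3, the partner of Psmg4, stood at 52.4 and 33.5 in stem/cycling-like cells, 22.1 and 30 in cycling-like cells, 31.0 and 27.7 in deep crypt secretory-like cells, 34.3 and 16.3 in goblet-like cells and 25.2 and 20.4 in colonocyte-like cells, a difference of 0.77 ± 0.25 (edgeR adjusted p = 0.012 and 0.017). The same genes marked the other end of the range in colonocyte-like cells, where Psmg2 was called lower, at -2.20 ± 0.32, and Psmg1 too, at -2.06 ± 0.45 (edgeR adjusted p = 2.4e-10 and 3.3e-05). In replicate 2 alone Psmg1 was at -1.26 in colonocyte-like cells and Psmg3 at 0.50 in stem/cycling-like cells. Colonocyte-like cells held only 7 and 4 UMIs of Psmg1 and 19 and 6 of Psmg2 in sums of 2828974 and 1246188 UMIs. The 3 chaperones of the cap's base, Psmd5, Psmd9 and Psmd10, were called in no class, so the calls among the 7 chaperones were all in the Psmg genes. All these directions held with totals alone.

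Psme3, whose product forms an activator ring of the nucleus related to that of Psme1 and Psme2, was called in the opposite direction to these 2 genes in colonocyte-like cells. Its levels were 138 and 110.0 in cycling-like cells, 117 and 91.7 in stem/cycling-like cells, 74.3 and 58.0 in goblet-like cells, 63.9 and 64.5 in deep crypt secretory-like cells and 56.1 and 47.1 in colonocyte-like cells. The cycling-like and stem/cycling-like values lay above those of the other 3 classes in each library. The log2 difference was 0.85 ± 0.23 in cycling-like cells, 0.54 ± 0.18 in stem/cycling-like cells and -0.74 ± 0.18 in colonocyte-like cells (edgeR adjusted p = 0.0028, 0.015 and 2.7e-04). The remaining regulators, Psme4, a single-chain activator, and Psmf1, an inhibitor of the core, were called in no class.

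**Figure D4:**
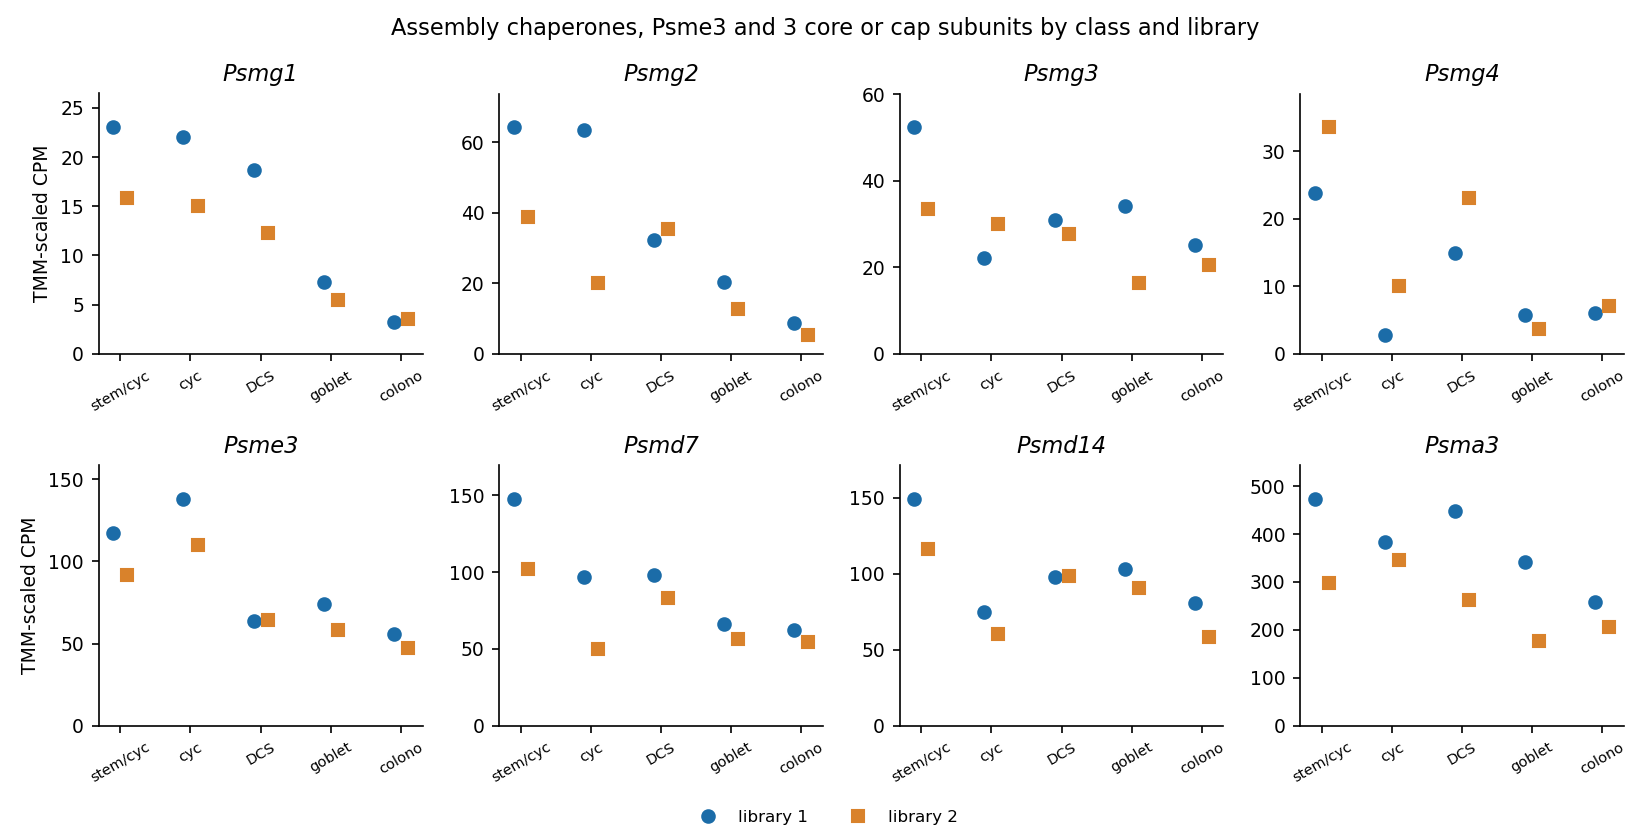
Level of 4 assembly chaperones, Psme3 and 3 core or cap subunits in TMM-scaled CPM (y axes, from 0) in 5 classes (x axes, short names as in the plot of immunoproteasome subunits); circles are replicate 1 and squares replicate 2. Psmg1, Psmg2 and Psme3 are lowest in colonocyte-like cells in both libraries.

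Of the cap, Psmd7, Psmd14 and Psmd3 were called higher in stem/cycling-like cells. Psmd7 stood at 148 and 102 in stem/cycling-like cells, 98.2 and 83.0 in deep crypt secretory-like cells, 96.6 and 50 in cycling-like cells, 66.2 and 56.2 in goblet-like cells and 62.2 and 54.2 in colonocyte-like cells and differed by 0.84 ± 0.17 (edgeR adjusted p = 2.5e-05). Psmd14 stood at 149 and 116 in stem/cycling-like cells, 98.2 and 98.4 in deep crypt secretory-like cells, 103 and 90.6 in goblet-like cells, 74.5 and 60.0 in cycling-like cells and 80.9 and 58.7 in colonocyte-like cells and differed by 0.71 ± 0.17 (edgeR adjusted p = 3.4e-04). These 2 subunits, which sit side by side in the lid, were highest in stem/cycling-like cells in each library, and Psmd3 was higher by 0.59 ± 0.20, from 0.36 in replicate 1 alone. Among core subunits Psmb3 (0.61 ± 0.19, and 0.37 in replicate 1 alone) and Psma3 (0.38 ± 0.12) were called higher, and so was one immunoproteasome member, Psmb8 (0.36 ± 0.12, edgeR adjusted p = 0.022). The median difference was 0.36 over the 17 cap subunits and 0.25 over the 14 core subunits, against 0.03 over all genes. With library totals alone 30 of the 47 members were called higher in these cells, against 18.1% of all genes, and none lower by edgeR, against 5.97%.

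The remaining 3 classes had few members called. In cycling-like cells Psme3 and Psmg2 (1.07 ± 0.36) were called higher, against 6.45% of all genes, and Psmb10 lower, at -0.53 ± 0.17, against 6.13%. The Psmg2 value rests on replicate 1: in replicate 2 alone it was 0.13, and DESeq2's test did not call it. In deep crypt secretory-like cells Psmg4 was called higher by 1.07 ± 0.38, against 9.63% of all genes, and Psmb8 lower, at -0.59 ± 0.13 (edgeR adjusted p = 1.2e-04), against 5.66%. DESeq2's test did not call Psmg4. On the TMM scale the Psmb8 level was the lowest of the 5 classes there in each library. Without TMM factors goblet-like cells were lower in replicate 1, at 253 against 263 CPM. In goblet-like cells none was called higher by edgeR, also at an unadjusted p under 0.05, where 12.2% of all genes were; DESeq2's test also called none higher. The beta subunit Psmb3 and the cap ATPase Psmc3 were called lower there, at -0.61 ± 0.22 and -0.69 ± 0.22, against 6.81% of all genes, and 14 members were lower at an unadjusted p under 0.05. DESeq2's test called neither, and Psmc3 was at -0.40 in replicate 2 alone.

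Calls in these 3 classes moved with the scaling. With library totals alone goblet-like cells had 30 members called lower, against 16.2% of all genes, and cycling-like cells 12 called higher, against 11.2%. Deep crypt secretory-like cells had 5 of 47 higher, against 13.1% of all genes, and 1 lower, against 4.18%. Psmb10 was then not called in cycling-like cells, where 3.30% of all genes were called lower. The share of calls that were higher went from 43.8% to 6.67% over the members in colonocyte-like cells, and from 54.5% to 33.8% over all genes. In cycling-like cells it went from 66.7% to 100% over the members, from a handful of calls, and from 51.3% to 77.2% over all genes. In deep crypt secretory-like cells it went from 50% to 83.3%, again from few calls, and from 63.0% to 75.8% over all genes. In goblet-like cells no member was called higher on either scale by edgeR, where totals called 7.21% of all genes higher. Over all genes the share there went from 64.2% to 30.8%.

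Summed over a role and given without TMM factors, as CPM with 95% exact Poisson intervals for counting error only, the constitutive core stood at 1799 (1750.2 to 1849) and 1669 (1598 to 1742) in colonocyte-like cells and at 3231 (3128 to 3337) and 2895 (2743 to 3053) in stem/cycling-like cells. The cap stood at 1052 (1015 to 1090.5) and 1003 (948 to 1060.2) against 1869 (1790.5 to 1949) and 1787 (1668 to 1912). On this scale the core and the cap were lowest in goblet-like and colonocyte-like cells and highest in stem/cycling-like cells in each library. The cycling-like core, 3180 (2987 to 3382) and 2758 (2508 to 3026), overlapped the stem/cycling-like intervals in both libraries. The cycling-like cap, 1617 (1480 to 1763) and 1618 (1427 to 1826), overlapped them in replicate 2 only. The colonocyte-like clusters were not alike: the cluster led by Gsdmc4 and Reg3b had a core of 2637 (2480 to 2801) and 2382 (2216 to 2557) and a cap of 1398 (1284 to 1518) and 1244 (1125 to 1372). Those intervals overlap the deep crypt secretory-like values, 2720 (2638 to 2805) and 2398 (2275 to 2526) for the core and 1362 (1303 to 1422) and 1284 (1194 to 1378) for the cap. In the other 3 colonocyte-like clusters the core lay between 1328 and 1760 and the cap between 898 and 1019. The immunoproteasome members summed to 1170 (1066 to 1281) and 1319 (1196 to 1451) in the cluster led by Gsdmc4 and Reg3b. In the other 3 colonocyte-like clusters their sums lay between 877 and 1154. The largest of these, 1154 (1093 to 1218) in replicate 1 of the cluster led by Fabp6, overlapped the Gsdmc4 and Reg3b interval of that library. The immunoproteasome members summed to 1084 (1046 to 1123) and 1072 (1015 to 1131) in colonocyte-like cells and to 1183 (1121 to 1247) and 1131 (1037 to 1232) in stem/cycling-like cells, whose intervals overlap. In goblet-like cells they summed to 805 (761 to 850.2) and 756 (689 to 828), in deep crypt secretory-like cells to 842 (796 to 889) and 776 (707 to 851) and in cycling-like cells to 993 (886 to 1109) and 923 (781 to 1084). Whether colonocyte-like or stem/cycling-like cells were highest for the immunoproteasome as a whole therefore depended on the scaling, while the share of inducible subunits did not.

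Member by member, 12 of the 47 had their highest scaled level in stem/cycling-like cells in both libraries, 8 in colonocyte-like cells, 3 in cycling-like cells and none in goblet-like or deep crypt secretory-like cells; the other 24 were highest in different classes in the 2 libraries. With totals alone these numbers were 17, 2, 7, 0 and 1. These are descriptions with no test.

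Genes that act beside the immunoproteasome in antigen processing were tested for comparison. H2-K1, H2-D1, H2-Q1, H2-T23 and Jak2 were also listed but had no counts under these symbols. The tested list therefore holds no gene of an MHC class I heavy chain. Of the 17 genes of this list that could be tested, 9 were called higher and 3 lower in colonocyte-like cells, with a median log2 difference of 0.54. That is 52.9% higher and 17.6% lower, against 21.6% and 18.0% of all genes, so the lower calls were near the background. DESeq2's test called 9 higher and 1 lower. Ifngr1, a chain of the interferon gamma receptor, stood at 557 and 468 in colonocyte-like cells, 192 and 250.1 in goblet-like cells, 100 and 109 in stem/cycling-like cells, 57.9 and 70.0 in cycling-like cells and 69.1 and 58.4 in deep crypt secretory-like cells and was higher by 2.39 ± 0.12. Its partner Ifngr2 was higher by 1.39 ± 0.15, Irf1, a transcription factor of the interferon response, by 1.31 ± 0.14, and Tap2, a chain of the peptide transporter, by 1.16 ± 0.14, while the chaperones Pdia3 and Calr and the trimming peptidase Erap1 were called lower, at -0.54 ± 0.12, -0.32 ± 0.10 and -0.61 ± 0.21. The 5 called immunoproteasome members thus stood beside receptor, factor and transporter genes called in the same direction; this list was assembled with earlier results of these data known.

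In goblet-like cells 6 of the 17 were called higher and 0 lower by edgeR, at an unadjusted p under 0.05 (8 and 0) and by DESeq2 (6 and 0) alike, against 12.2% and 6.81% of all genes by edgeR, with Stat2 (1.22 ± 0.22), Calr (0.90 ± 0.10), Ifngr1 (0.83 ± 0.15) and Pdia3 (0.78 ± 0.11) leading, although no immunoproteasome member was called there by edgeR, at an unadjusted p under 0.05 or by DESeq2. Against 10.4% of all genes higher and 9.67% lower, in stem/cycling-like cells 1 was called higher, Canx (0.33 ± 0.13), and 9 lower, led by Stat2 (-1.36 ± 0.29), Tap2 (-0.85 ± 0.19), Irf1 (-0.71 ± 0.18) and Pdia3 (-0.70 ± 0.13). Psmb8 was called higher in the same cells. Against 9.63% and 5.66% of all genes, in deep crypt secretory-like cells 1 was higher, Pdia3 (0.46 ± 0.12), and 6 lower, among them Ifngr1 (-1.33 ± 0.17), Ifngr2 (-0.70 ± 0.19) and Tap1 (-0.54 ± 0.15). In cycling-like cells 0 were called higher by edgeR, 0 at an unadjusted p under 0.05 and 0 by DESeq2, and 4 were called lower, against 6.13% of all genes, Ifngr1 (-1.40 ± 0.24), Ifngr2 (-0.77 ± 0.28), Tapbp (-0.61 ± 0.15) and B2m (-0.45 ± 0.11).

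**Figure D5:**
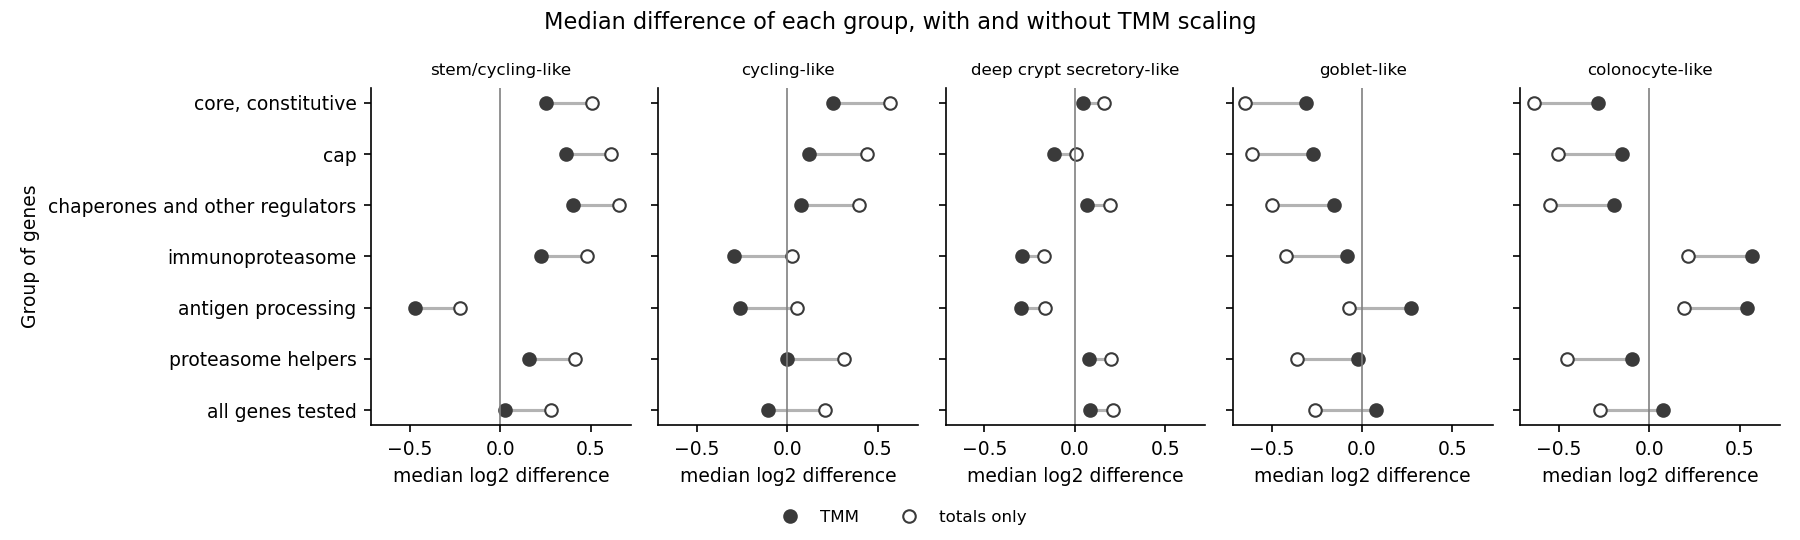
Median log2 difference (x axes) of each group of genes (y axis) in each class from the mean of the other 4 classes; filled circles use TMM factors and open circles library totals only, joined by a line. In colonocyte-like cells the immunoproteasome and antigen processing medians are above 0 on both scales, at 0.57 and 0.22 and at 0.54 and 0.19, while the core and cap medians are below 0 on both.

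Of the 27 tested helper genes, which assemble, regulate or supply the proteasome, 6 were called higher and 7 lower in colonocyte-like cells, with a median of -0.10. The 22.2% called higher was near the 21.6% of all genes, and 25.9% were called lower, against 18.0%. Nfe2l1, the transcription factor that raises proteasome genes when degradation falls short, was higher by 0.92 ± 0.17, as were Ngly1 (0.62 ± 0.17) and Ddi2 (0.61 ± 0.18), whose products process this factor. Called lower were Ubqln2 (-1.85 ± 0.31), a shuttle that brings substrates, Rps27a (-1.56 ± 0.12), a ribosomal protein gene fused to ubiquitin, and the cap-bound deubiquitinases Uchl5 (-1.23 ± 0.26) and Usp14 (-1.22 ± 0.20). With totals alone Ngly1 and Ddi2 kept their direction but were not called.

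In stem/cycling-like cells 4 helpers (14.8%, against 10.4% of all genes) were called higher, Usp14 (0.88 ± 0.19), Uchl5 (0.73 ± 0.24), Rps27a (0.62 ± 0.10) and Pomp (0.38 ± 0.12), and 3 (11.1%, against 9.67%) lower, among them Ngly1 (-1.41 ± 0.23) and Zfand5 (-0.88 ± 0.20). Pomp encodes the maturation factor of the core, and it stood at 405 and 372 in stem/cycling-like cells, 377 and 237 in colonocyte-like cells, 343 and 270.5 in deep crypt secretory-like cells, 312 and 247 in goblet-like cells and 353 and 255 in cycling-like cells. Uchl5 and Usp14 were thus called in opposite directions in the 2 classes, as Psmd14, a further deubiquitinase of the cap, was. In cycling-like cells, against 6.45% and 6.13% of all genes, 4 helpers (14.8%) were higher, Uchl5, Usp14, Rad23b and Rps27a, and 3 (11.1%) lower, among them Nfe2l1 and Shfm1. Goblet-like cells had 3 (11.1%) higher, among them Ngly1 and Zfand5, and 2 (7.41%) lower, Rad23b and Rps27a, against 12.2% and 6.81% of all genes. Deep crypt secretory-like cells had Rps27a and Txnl1 (7.41%, against 9.63% of all genes) higher and 0 lower by edgeR, also at an unadjusted p under 0.05 and by DESeq2.

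Immune cells, which are rich in immunoproteasomes, were looked for by their markers. The 12 T cell markers summed to 74.6 and 144 CPM, without TMM factors, in colonocyte-like cells, 72.4 and 169 in goblet-like cells, 83.7 and 151 in deep crypt secretory-like cells, 61.6 and 95.9 in stem/cycling-like cells and 101 and 62.0 in cycling-like cells. In the T cell-like cluster of 55 and 9 cells, where B and plasma cell markers also reached 24705 and 106, they summed to 23894 and 16731. Colonocyte-like cells, which held UMIs of all 12 markers in both libraries, lay between goblet-like and deep crypt secretory-like cells in replicate 1 and below both in replicate 2. The 7 B and plasma cell markers summed to 13.1 and 21.7 in colonocyte-like cells, with Cd79b and Mzb1 at 0 in replicate 2, and to between 6.20 and 30.4 in the sums of the other 4 classes. The 9 myeloid markers summed to 16.6 and 21.7 in colonocyte-like cells, with Tyrobp at 0 in replicate 2, and to between 0 and 24.8 in the other 4 classes. The summed level of the inducible subunits in the T cell-like cluster was 1053 and 744 CPM, near the 881 and 853 of colonocyte-like cells on the same scale.

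The share of inducible subunits in the T cell-like cluster was 69.9% (62.0% to 77.0%) and 77.8% (52.4% to 93.6%). The 2 unnamed clusters together, which were shallow, had 69.8% (64.6% to 74.6%) and 72.7% (68.5% to 76.5%). These were close to the 69.3% and 70.3% of all cells kept, which include them. In the larger unnamed cluster, of 173 and 164 cells, red cell markers stood 4.66 above the mean of the 13 clusters (log2). Whether the unnamed clusters include spiked-in cells was not tested. Tuft-like cells held only 20 and 3 UMIs of the 6 catalytic genes in 9 and 2 cells, too few to place. The median cell took 6.05% and 11.4% of its UMIs from mitochondrially encoded genes in the colonocyte-like class of the 2 libraries, 3.11% and 6.23% in the goblet-like, 3.29% and 6.25% in the deep crypt secretory-like, 5.50% and 8.63% in the stem/cycling-like and 3.57% and 6.24% in the cycling-like class. The mean share of inducible subunits over the 2 libraries in colonocyte-like cells was 76.8%, 76.6% without cells over 20% mitochondrial UMIs and 76.7% without the shallow cluster, the last chosen after seeing the data.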

How the data were processed

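Per the labels' protocols, cells were encapsulated with inDrop and their RNA was amplified by CEL-Seq. The deposited tables hold the authors' UMI counts by gene and barcode, as whole numbers. Builds GRCm38 and GRCh38 appear per the submitters' processing notes. Aligner, annotation, barcode filter and strand of counting (not given in the sources used here) leave counts of overlapping, antisense and near-identical genes uncertain.

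Barcodes with at least 500 UMIs and 250 genes were kept, and the 5% with the highest doublet score were left out of each library. Genes were divided by a hash of their symbol into 12744 for clustering and 12760 for testing, the latter including all members, list genes and mitochondrially encoded genes. The 1500 most variable clustering genes gave 30 principal components and Leiden clusters at resolution 1 (Python 3.11.15, leidenalg 0.10.2), named from marker lists; 2 of 13 clusters stayed unnamed. Class sums were fitted with edgeR 4.0.16 (R 4.3.3) after TMM scaling, on genes with at least 20 UMIs. The replicate number was a block in the fit, because each class was drawn from both libraries, which pairs the sums by design; 4 residual degrees of freedom remained. DESeq2 1.42.0 was an alternative. The scripts were tested on simulated data.

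The genes always named were the 5 immunoproteasome members and Psmb5, Psmb6 and Psmb7; otherwise up to 4 called genes per role or list, direction and class, with the largest difference, were named. The values of 2 list genes that this rule names are not reported here. Members, lists and tests were chosen with earlier results of these data known.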

Additional observations from a re-analysis of the deposited data

How the results depend on the processing

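The shares of inducible subunits and the subgroup sums moved by less than the spread between libraries in every setting not named here, and each single library gave a share of 57.9% to 77.6% in the 5 classes. When either library was left out, where a difference is a value with no test, none of the 34 called differences of single members changed sign, but 12 moved by more than the spread between libraries without replicate 1 and 8 without replicate 2. Those that moved over 1.5 times without replicate 1 were Psma3 (-0.35), Psmb6 (-0.58), Psmd7 (-0.36) and Psmg1 (-1.26) in colonocyte-like, Psmg2 (0.13) in cycling-like, Psmc3 (-0.40) in goblet-like and Psmg3 (0.50) in stem/cycling-like cells. Without replicate 2 they were Psmb6 (-0.24) in colonocyte-like and Psmb3 (0.37) and Psmd3 (0.36) in stem/cycling-like cells. With 1 library, counts of calls had no residual degrees of freedom and were not run. Library totals only and leaving out the shallow cluster were chosen after seeing the data. The calls themselves depended on the processing. The main numbers of members called higher and lower were 7 and 9 in colonocyte-like, 2 and 1 in cycling-like, 1 and 1 in deep crypt secretory-like, 0 and 2 in goblet-like and 11 and 0 in stem/cycling-like cells, and the 8 named subunits had 18 calls over 10 pairwise contrasts. Of the 34 called differences of single members, 1 turned with library totals only and none under the other settings; 23 were no longer called without the library block, 21 of 33 with thinned sums and 16 with DESeq2's test. Psmb10, Psme2 and Psmg2 in colonocyte-like cells and Psmd7, Psmd14 and Psmg4 in stem/cycling-like cells were called in the settings that gave them a value, except that Psme2 had none with thinned sums. Without the doublet filter and at a resolution of 0.5 there was no stem/cycling-like class. With all other genes used for clustering, a cluster of 246 cells led by Gsdmc4 stayed unnamed and was not in the colonocyte-like class. Without the doublet filter, clusters of 135 cells led by Gsdmc4 and of 205 cells led by Scin and Best2 stayed unnamed. The classes compared therefore held different cells in these settings. Thinned sums hold fewer UMIs and some settings fewer cells, but the cause of the changed calls was not tested in any setting.

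Members called higher in colonocyte-like cells numbered 2 with library totals only, 2 with no replicate block and 3 with sums thinned to equal totals. Members called lower in colonocyte-like cells numbered 28 with library totals only, 5 with DESeq2's size factors, 4 with DESeq2's test, 5 with no filter on low counts, 3 with no replicate block, 17 with all other genes used for clustering and 3 with sums thinned to equal totals. With all other genes used for clustering, 1520 of 7725 genes were called lower there, against 1458 of 8088 in the main setting. Members called higher in cycling-like cells numbered 12 with library totals only, 1 with DESeq2's test, 1 with no filter on low counts, 1 with no replicate block, 22 with no doublet filter, 19 at a Leiden resolution of 0.5, 5 with all other genes used for clustering, 6 with sums thinned to equal totals and 1 against all other epithelial cells summed. With no doublet filter 1267 of 7831 genes were called higher there, and 1173 of 8123 at a resolution of 0.5, against 522 of 8088 in the main setting. Members called lower in cycling-like cells numbered 0 with library totals only, 0 with no replicate block and 0 with sums thinned to equal totals. Members called higher in deep crypt secretory-like cells numbered 5 with library totals only, 0 with DESeq2's size factors, 0 with DESeq2's test, 0 with no replicate block, 5 with no doublet filter, 3 at a Leiden resolution of 0.5, 2 with all other genes used for clustering, 0 with sums thinned to equal totals, 4 against all other epithelial cells summed and 0 without cells over 20% mitochondrial UMIs. Members called lower in deep crypt secretory-like cells numbered 2 without the shallow colonocyte-like cluster, 3 with DESeq2's size factors, 0 with no replicate block, 3 with no doublet filter, 5 at a Leiden resolution of 0.5 and 5 against all other epithelial cells summed. Members called lower in goblet-like cells numbered 30 with library totals only, 4 with DESeq2's size factors, 0 with DESeq2's test, 1 with no filter on low counts, 0 with no replicate block, 13 with no doublet filter and 1 with sums thinned to equal totals. With no doublet filter 640 of 7831 genes were called lower there, against 551 of 8088 in the main setting. Members called higher in stem/cycling-like cells numbered 30 with library totals only, 4 with DESeq2's test, 5 with no replicate block, 5 with sums thinned to equal totals and 24 against all other epithelial cells summed. In that last setting 1205 of 8101 genes were called higher there, against 839 of 8088 in the main setting. Members called lower in stem/cycling-like cells numbered 1 against all other epithelial cells summed. Immunoproteasome members called higher in colonocyte-like cells numbered 2 with library totals only, 2 with no replicate block and 2 with sums thinned to equal totals. Immunoproteasome members called lower in cycling-like cells numbered 0 with library totals only, 0 with no replicate block and 0 with sums thinned to equal totals. Immunoproteasome members called lower in deep crypt secretory-like cells numbered 2 with DESeq2's size factors, 0 with no replicate block, 3 with no doublet filter, 4 at a Leiden resolution of 0.5, 0 with sums thinned to equal totals and 4 against all other epithelial cells summed. Immunoproteasome members called lower in goblet-like cells numbered 3 with library totals only and 1 with sums thinned to equal totals. Immunoproteasome members called higher in stem/cycling-like cells numbered 2 with library totals only, 0 with DESeq2's test, 0 with no replicate block and 0 with sums thinned to equal totals. Immunoproteasome members called lower in stem/cycling-like cells numbered 1 against all other epithelial cells summed. Calls among the 8 named subunits in 10 pairwise contrasts numbered 5 with no replicate block, 9 with sums thinned to equal totals and 33 with library totals only. The inducible share in cycling-like cells was 64.3% with no doublet filter and 64.8% at a Leiden resolution of 0.5. The inducible share in goblet-like cells was 73.4% with no doublet filter. The inducible share in stem/cycling-like cells was 66.5% without cells over 20% mitochondrial UMIs. Helper genes called higher numbered 3 in colonocyte-like, 2 in cycling-like, 1 in deep crypt secretory-like and 1 in stem/cycling-like cells with no replicate block. Helper genes called lower numbered 0 in cycling-like and 0 in goblet-like cells with no replicate block. Antigen processing genes called lower numbered 0 in colonocyte-like, 1 in cycling-like, 1 in deep crypt secretory-like and 2 in stem/cycling-like cells with no replicate block. Antigen processing genes called higher numbered 0 in deep crypt secretory-like and 0 in stem/cycling-like cells with no replicate block. As CPM of the UMIs that are not mitochondrially encoded, the constitutive core summed to 1924 in colonocyte-like and 3339.8 in stem/cycling-like cells. As CPM of the UMIs that are not mitochondrially encoded, the immunoproteasome summed to 1197 in colonocyte-like, 1010.2 in cycling-like, 824 in goblet-like and 1262 in stem/cycling-like cells. As CPM of the UMIs that are not mitochondrially encoded, the cap summed to 1140.2 in colonocyte-like, 1706 in cycling-like, 1397 in deep crypt secretory-like, 1007 in goblet-like and 1994 in stem/cycling-like cells.

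The differences of the 8 named subunits and called members that changed sign, all but Psmd8 in colonocyte-like cells not called, were these. With library totals only, Psmd8 was at -0.034 in colonocyte-like, Psmb8 was at 0.073 in cycling-like, Psme1 was at 0.026 in cycling-like, Psmb10 was at -0.10 in goblet-like, Psme2 was at -0.20 in goblet-like, Psmb10 was at 0.031 in stem/cycling-like cells. With DESeq2's size factors, Psmb5 was at -0.022 in deep crypt secretory-like, Psmb7 was at -0.0030 in deep crypt secretory-like cells. With DESeq2's test, Psmb5 was at -0.023 in deep crypt secretory-like cells. With no doublet filter, Psmb8 was at 0.21 in cycling-like, Psme1 was at 0.13 in cycling-like, Psme2 was at 0.17 in cycling-like, Psme2 was at -0.29 in deep crypt secretory-like, Psme2 was at -1.32 in goblet-like cells. At a Leiden resolution of 0.5, Psmb7 was at 0.0071 in colonocyte-like, Psmb8 was at 0.24 in cycling-like, Psme1 was at 0.11 in cycling-like, Psme2 was at -0.27 in deep crypt secretory-like, Psme2 was at -0.39 in goblet-like cells. With all other genes used for clustering, Psme2 was at -0.0094 in goblet-like cells. With sums thinned to equal totals, Psmb6 was at 0.014 in goblet-like cells. Against all other epithelial cells summed, Psme2 was at -0.45 in deep crypt secretory-like, Psmb6 was at 0.058 in goblet-like, Psme2 was at -0.55 in goblet-like, Psme2 was at -0.029 in stem/cycling-like cells.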
